A study of Mus musculus with 24 samples.

Results

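Imprinted genes are transcribed mainly from the copy inherited from the mother or from the copy inherited from the father. The genes described here are 41 known imprinted genes of the mouse, H19 and Igf2 left aside, chosen by gene symbol from a list. By general knowledge 24 of them are expressed from the paternal and 17 from the maternal copy. Of the 41, 38 had a row among the 19780 genes of the table for control cells and 39 among the 19979 genes of the table for paused cells, and 38 could be compared in both. Snrpn and Snurf were matched to no row and have no expression value here, and Airn was analysed in paused cells alone. Total poly(A) RNA was measured, which does not separate the parental copies, so the imprinted state itself was not measured.

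From E14 mouse embryonic stem cells, kept in serum with leukaemia inhibitory factor, 24 poly(A) RNA libraries were made in 6 groups of 4. Cells were wild type or belonged to the lines Smad2_KO1 and Smad2_KO2, labelled as knockouts of Smad2, a transcription factor of the Nodal and activin pathway. Each genotype was studied in control medium and in a paused state induced with 200 nM INK128, which inhibits the growth kinase mTOR, over 12 h. All groups share the E14 background and serum medium, and the labels do not say how the knockout lines were made. The question of each comparison was which of these transcripts differed between the Smad2 knockout lines and wild type, and whether pausing altered that difference. Libraries of a knockout group share a line, so they are not independent knockouts, and the adjusted p-values rest on such libraries. Whether a change came from the loss of Smad2 or from other differences between the lines was not tested.

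In each imprinted cluster a control region carries DNA methylation from the egg or the sperm, and this mark is kept through the reprogramming of the early embryo by factors such as the zinc finger protein ZFP57. The mark sets which copy of several neighbouring genes is transcribed, often through a noncoding RNA or an insulator. Many imprinted genes act on growth of the embryo and placenta, with paternally expressed genes tending to promote it and maternally expressed genes to restrain it.

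The values come as 1 row per gene, with a mean normalized read count over libraries, a log2 fold change, its standard error (SE) and a p adjusted over all genes of the table. Values of single libraries were not analysed here, so depth per library is unknown, the knockout lines cannot be told apart, and the SE is the one measure of spread. The labels do not say whether libraries of a group are separate cultures. Changes are read as knockout over wild type because Smad2 was lower per the authors' deposited tables, by log2 values of -0.35 (SE 0.07) in control and -0.63 (SE 0.06) in paused cells. On that reading its transcript was still counted, at 78.6% and 64.6% of the wild-type level per the authors' deposited tables. Read the other way, each direction given here would flip. In bulk RNA, fewer cells of a type and less RNA per cell cannot be told apart. All 6 embryonic stem cell markers looked up, among them Pou5f1 and Nanog, were abundant, with means from 18775 to 51710 normalized counts per the authors' deposited table of control cells. Of these Nanog was higher in both conditions (0.32, SE 0.06, and 0.18, SE 0.07), Pou5f1 was lower in control cells (-0.18, SE 0.06), and the other 4 were not called per the authors' deposited tables.

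Between Smad2 knockout and wild type, imprinted genes differed in both directions, and mostly by less than 2-fold. In control cells 17 of 38 genes passed an adjusted p of 0.05 per the authors' deposited table, 9 higher and 8 lower, a share of 44.7% against 41.4% of all genes tested. In paused cells 20 of 39 passed per the authors' deposited table, 13 higher and 7 lower, a share of 51.3% against 42.6% of all genes. A share of calls this close to that of all genes is no result about the imprinted genes as a set. Called changes of at least 1.5-fold were found for 7 genes in control cells (18.4%, against 15% of all genes) and for 10 in paused cells (25.6%, against 14.7%) per the authors' deposited tables. Stricter and other rules were applied in turn. After dividing the statistic by the spread of its central values, a factor of 2.76 in control and 2.80 in paused cells, 2 of the 17 calls in control cells were left, Ascl2 and Zrsr1 (against 1.48% of all genes), and 1 of the 20 in paused cells, Zrsr1 (against 2.25%). Called changes of 2-fold or more were limited to Ascl2 in control cells, where 6.98% of all genes had one, and to Ascl2 and Grb10 in paused cells, against 7.1%. When the null was any change up to 1.2-fold, 8 of 38 genes passed in control and 9 of 39 in paused cells. Of all genes 10.6% passed in each. Setting equal summed counts in both genotypes gave 22 calls in control cells (39.8% of all genes), 63.6% of them higher against 52.9% as deposited, and 19 in paused cells (41.1% of all genes).

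Paternally and maternally expressed genes were then set side by side. Among paternally expressed genes, 8 of 21 were called higher and 2 lower per the authors' deposited table of control cells. That is 38.1% higher and 9.52% lower, where 19.5% and 21.9% of all genes were. For paused cells the authors' deposited table gave 10 of 22 higher (45.5%) and 4 lower (18.2%), where 20.5% and 22% of all genes were. Among maternally expressed genes 1 of 17 was higher and 6 were lower per the authors' deposited table of control cells. In paused cells 3 of the 17 were higher and 3 lower per the authors' deposited table. The median log2 change of the paternally expressed genes was 0.22 in control and 0.23 in paused cells per the authors' deposited tables, and that of the maternally expressed genes was -0.01 in both (0.04 and 0.03 with equal summed counts), close to the median of all genes (0.00087 and -0.0016). Of the 17 maternally expressed genes 7 are known as imprinted in some tissues only, Ascl2, Copg2, Gnas, Grb10, Ppp1r9a, Trappc9 and Ube3a. The other 10 had medians of -0.12 and -0.11 per the authors' deposited tables. Of these 10, 0 were higher and 4 lower in control cells, and 2 higher and 1 lower in paused cells, per the authors' deposited tables. These are descriptions of lists chosen with earlier results known, and no test was made over the genes. The plot of changes by expressed copy shows that both lists hold genes on each side of 0.

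**Figure D1:**
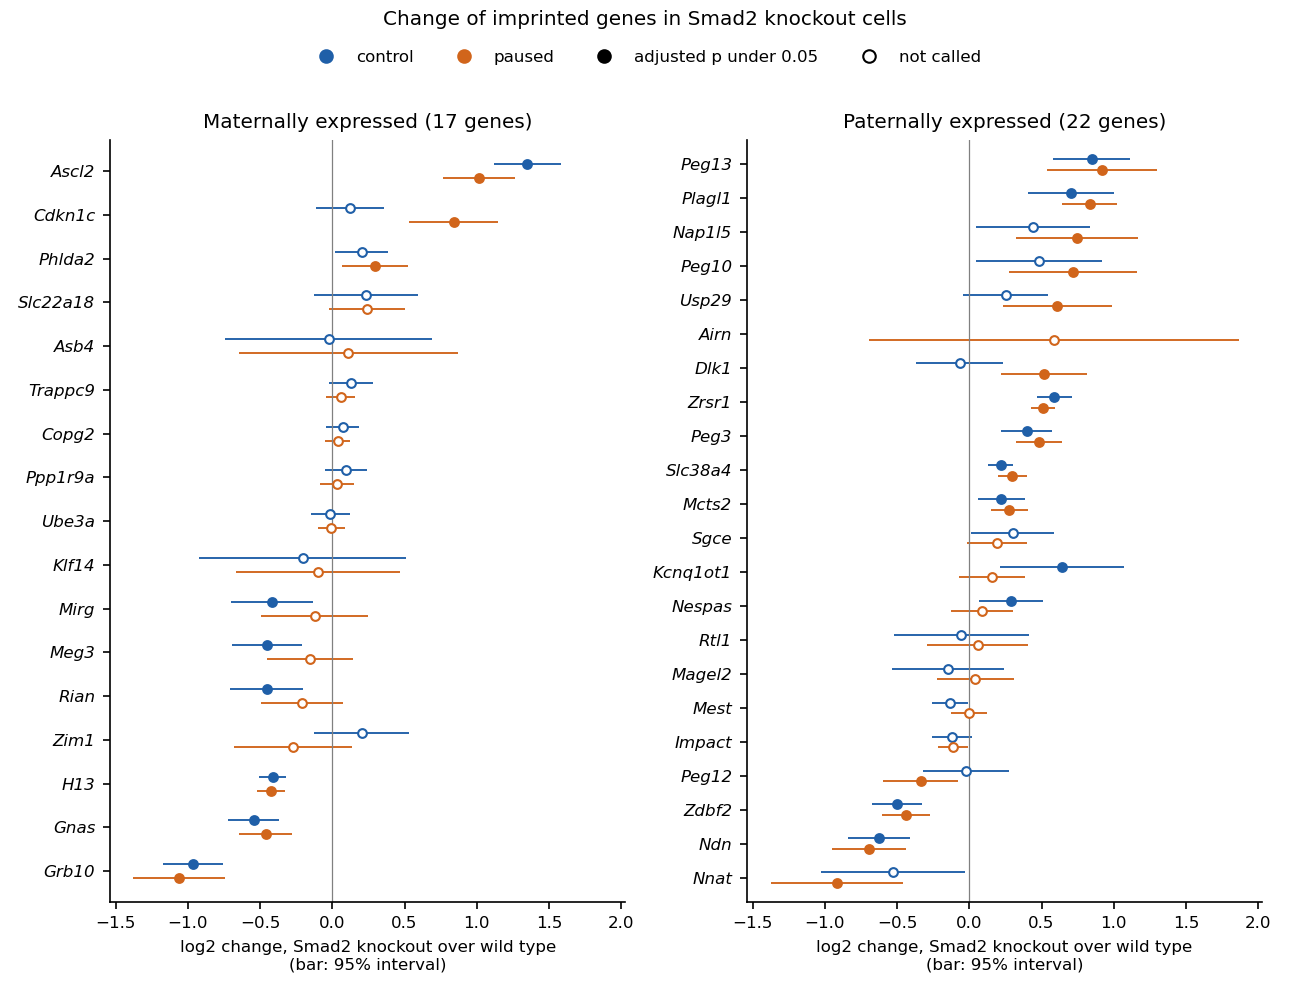
Log2 change in Smad2 knockout over wild type (horizontal axis, bars are 95% intervals from the SE) for the 17 maternally and 22 paternally expressed genes with values, control cells in blue and paused cells in orange. Filled points passed the adjusted p of 0.05. Ascl2 and Grb10 have the highest and lowest values of the maternal list. Peg13 has the highest value of the paternal list, and Ndn in control and Nnat in paused cells have the lowest.

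Several paternally expressed imprinted genes are small genes that lie inside an intron of another gene, the host. Mcts2, Zrsr1 and Nap1l5 are retrogenes, copies of spliced mRNAs of other genes, Peg13 is a noncoding RNA, and Nnat codes for neuronatin, a membrane protein. The bases ahead of the 3 retrogenes are shown to describe the sequence before these nested genes, and no value here links these bases to the changes. They are RefSeq sequences of build GRCm38.p6, taken from the window that ends before the annotated start and limited to its longest stretch free of exons. For Zrsr1 and Nap1l5 this stretch reaches the base before the start, while for Mcts2 it ends 114 bases before the start. Capitals mark TGCCGC or its reverse complement GCGGCA, the core letters of the motif bound by ZFP57.
Mcts2 upstream, chr2:152686898-152687034, plus strand: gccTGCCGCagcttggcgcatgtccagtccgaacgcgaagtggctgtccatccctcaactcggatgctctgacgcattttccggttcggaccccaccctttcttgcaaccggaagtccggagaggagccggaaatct
Zrsr1 upstream, chr11:22971755-22972004, plus strand: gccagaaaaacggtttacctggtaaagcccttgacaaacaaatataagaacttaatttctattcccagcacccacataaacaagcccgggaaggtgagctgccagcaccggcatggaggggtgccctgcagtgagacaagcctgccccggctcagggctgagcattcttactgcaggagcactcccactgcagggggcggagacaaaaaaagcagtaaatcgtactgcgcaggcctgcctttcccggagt
Nap1l5 upstream, chr6:58907127-58907261, minus strand: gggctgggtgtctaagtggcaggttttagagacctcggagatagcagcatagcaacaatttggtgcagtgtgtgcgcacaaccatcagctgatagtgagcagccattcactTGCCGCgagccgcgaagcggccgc
The stretch ahead of Mcts2 holds the letters once, that ahead of Nap1l5 once, and that ahead of Zrsr1 does not hold them. Windows of 250 bases before to 50 after the start were searched on both strands for 32 of the imprinted genes, Snrpn and Snurf included. Some windows overlap, as those of Snrpn with Snurf and 2 of Mest do. Counting overlapping windows once, 11 of 43 held the letters (25.6%), against 11.0% of 29164 windows over all genes, and counting each, 13 of 47 did (27.7%), against 11.6% of 32851. Median GC content of the 250 bases ahead of the start was 54.8% for the imprinted genes and 52.4% for all. For the SMAD letters CAGACA the shares counting overlapping windows once were 11.6% and 21.6%, and GTCTAGAC was in none of the 43 and in 0.213% of all. A match of letters is a description and not a binding site.

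Zrsr1, which codes for a protein related to splicing factor U2AF and lies in Commd1 (chr11:22972005-22976496 in GRCm38.p6), rose in both conditions. Per the authors' deposited tables it rose by 0.59 in control (mean 1102 normalized counts, SE 0.06, adjusted p 1.47e-19) and by 0.51 in paused cells (mean 1200, SE 0.04, adjusted p 5.8e-33). Its host Commd1, a gene of copper and endosomal transport that is known as maternally expressed in brain, fell by 0.28 (SE 0.07, adjusted p 5.06e-04) and by 0.30 (SE 0.06, adjusted p 2.85e-06) per the authors' deposited tables. Their 95% intervals do not overlap in either condition. The annotation has Commd1 exons antisense over 9.17% of the exon bases of Zrsr1.

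Mcts2, a copy of the translation factor gene Mcts1, lies in H13, which codes for the signal peptide peptidase. Mcts2 rose by 0.22 in control (mean 917 normalized counts, SE 0.08, adjusted p 0.0229) and by 0.28 in paused cells (mean 860, SE 0.06, adjusted p 1.06e-04) per the authors' deposited tables. H13 fell by 0.41 in control (mean 1370, SE 0.05, adjusted p 2.36e-16) and by 0.42 in paused cells (mean 1353, SE 0.05, adjusted p 7.89e-17) per the authors' deposited tables. At this locus the nested and the host gene were thus called in opposite directions in both conditions. The values of the pair differed by 0.63 on the log2 scale in control and 0.70 in paused cells per the authors' deposited tables, which was not tested as the genes share libraries.

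As deposited, Peg13 in both conditions and Nap1l5 in paused cells rose without a call on their hosts. Peg13 rose by 0.85 in control (mean 131 normalized counts, SE 0.14, adjusted p 6.82e-09) and by 0.92 in paused cells (mean 98.5, SE 0.20, adjusted p 1.66e-05) per the authors' deposited tables, or 1.8-fold and 1.89-fold. Its host Trappc9, a subunit of a vesicle tethering complex, had values of 0.13 and 0.06 per the authors' deposited tables, neither called. With equal summed counts Trappc9 was called higher in control cells, at 0.18 (adjusted p 0.049). Nap1l5, a relative of nucleosome assembly proteins, was at 0.44 in control cells (mean 43.9, SE 0.20, adjusted p 0.0661) and rose by 0.75 in paused cells (mean 41.1, SE 0.22, adjusted p 0.00219) per the authors' deposited tables. Herc3 around it was at 0.08 and -0.02 per the authors' deposited tables. Nnat went the other way. It was at -0.53 in control cells (SE 0.25, adjusted p 0.081) and fell by 0.92 in paused cells (SE 0.23, adjusted p 3.73e-04) per the authors' deposited tables, with means over all libraries of 473 and 326 normalized counts. Its host Blcap was not called in control cells (-0.09) and fell by 0.23 in paused cells (SE 0.05, adjusted p 1.79e-04) per the authors' deposited tables. The plot of nested and host genes shows the nested gene above its host at 4 of the 5 loci, with Nnat the exception.

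**Figure D2:**
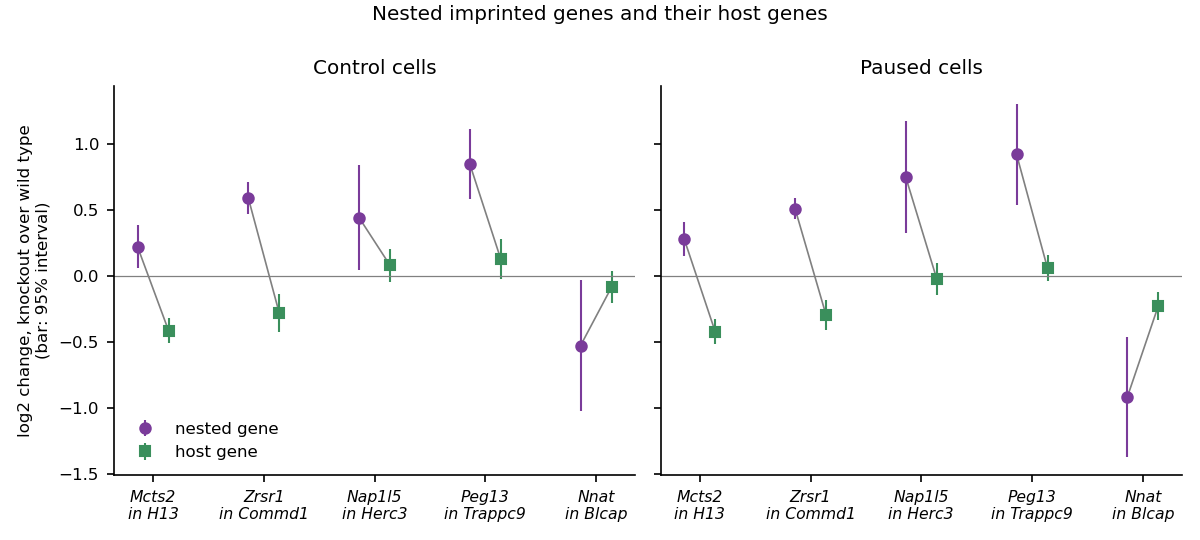
Log2 change in knockout over wild type (vertical axis, bars are 95% intervals) of 5 nested genes (purple circles) and their hosts (green squares), control cells left and paused cells right. Mcts2 and Zrsr1 lie above 0 and their hosts H13 and Commd1 below 0 in both panels, and Nnat lies below Blcap.

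Peg3 and Usp29 are divergent paternally expressed neighbours on chromosome 7. Peg3 codes for a zinc finger protein of growth and maternal behaviour and Usp29 for a deubiquitinase, and their annotated ends leave a gap of 96 bases, which is given because they share it as a promoter region. The gap does not hold TGCCGC on either strand.
Peg3-Usp29 gap, chr7:6730463-6730558, minus strand: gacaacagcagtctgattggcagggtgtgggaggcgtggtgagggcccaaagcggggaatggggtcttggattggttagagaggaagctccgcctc
Peg3 rose by 0.40 in control (mean 10213 normalized counts, SE 0.09, adjusted p 5.43e-05) and by 0.48 in paused cells (mean 8205, SE 0.08, adjusted p 3.3e-08) per the authors' deposited tables. Usp29 was at 0.25 in control cells (mean 89.3, SE 0.15, adjusted p 0.177) and rose by 0.61 in paused cells (mean 98.1, SE 0.19, adjusted p 0.00523) per the authors' deposited tables. The intervals of both genes overlap in both conditions. Zim1, the maternally expressed zinc finger gene beside them, was not called, with values of 0.20 in control and -0.28 in paused cells per the authors' deposited tables and a mean of at most 77.1 normalized counts.

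Peg10 and Sgce are likewise divergent and paternally expressed, on chromosome 6. Peg10, a gene of retrotransposon origin that the placenta needs, had the highest mean count of the imprinted genes, 40295 normalized counts for control and 45768 for paused cells per the authors' deposited tables. Its value was 0.48 in control cells (SE 0.22, adjusted p 0.0707), and it rose by 0.72 in paused cells (SE 0.23, adjusted p 0.00529) per the authors' deposited tables. Sgce, the epsilon-sarcoglycan gene, was not called, at 0.30 and 0.19 per the authors' deposited tables. The maternally expressed genes Ppp1r9a, which codes for neurabin, and Asb4, which codes for a ubiquitin ligase adaptor, lie further along. Neither was called in either condition, and their values lay between -0.03 and 0.11 per the authors' deposited tables. Pon2, a paraoxonase gene between them that is maternally expressed in placenta, fell by 0.95 in control (SE 0.12) and 1.05 in paused cells (SE 0.14) per the authors' deposited tables.

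The Dlk1-Dio3 cluster on chromosome 12 has protein genes on the paternal copy and long noncoding RNAs on the maternal copy. The noncoding RNAs Meg3, Rian and Mirg host many small nucleolar RNAs and microRNAs, and 10 annotated microRNA hairpins lie within Mirg (chr12:109734981-109749458). In control cells these RNAs fell together. Meg3 fell by 0.45 there (mean 6510 normalized counts, SE 0.12, adjusted p 0.00117), Rian by 0.46 (mean 8853, SE 0.13, adjusted p 0.00187) and Mirg by 0.42 (mean 646, SE 0.15, adjusted p 0.0122) per the authors' deposited table. In paused cells their values were -0.16, -0.21 and -0.12, with none called, per the authors' deposited table. The change did not pass a test of the difference between conditions for any of them (adjusted p 0.562, 0.661 and 0.665), so it is not shown to differ. The bases ahead of the first Meg3 start are shown because this promoter is known to drive the maternal transcripts. They hold the ZFP57 letters once, as GCGGCA.
Meg3 upstream, chr12:109540746-109540995, plus strand: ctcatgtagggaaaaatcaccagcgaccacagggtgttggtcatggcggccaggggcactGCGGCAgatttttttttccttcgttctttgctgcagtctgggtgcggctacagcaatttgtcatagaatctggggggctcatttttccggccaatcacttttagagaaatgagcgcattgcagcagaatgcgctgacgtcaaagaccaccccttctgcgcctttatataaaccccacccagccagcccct

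Of the paternally expressed genes of the cluster, Dlk1, which codes for a Notch-like inhibitor of fat cell differentiation, was at -0.07 in control cells (SE 0.15, adjusted p 0.768) per the authors' deposited table. It rose by 0.51 in paused cells (mean 208 normalized counts, SE 0.15, adjusted p 0.00275) per the authors' deposited table. The difference of 0.58 (SE 0.22) had an unadjusted p of 0.00732 and did not pass after adjustment (adjusted p 0.169). Rtl1, a placental gene of retrotransposon origin, was not called, at -0.05 and 0.06 per the authors' deposited tables, with means of 67.6 and 68.0 normalized counts. Dio3, the thyroid hormone deiodinase gene at the far end, is no listed gene. It rose by 0.77 (SE 0.15) in control and 1.02 (SE 0.20) in paused cells per the authors' deposited tables. Within the cluster, then, control values of the maternal noncoding RNAs were below 0 and that of Dio3 above it. The 20 nearest tested genes outside the stretch from Dlk1 to Mirg had a median change of -0.02 by both of the authors' deposited tables. Only listed genes were left out of these 20, so Dio3 can be among them.

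**Figure D3:**
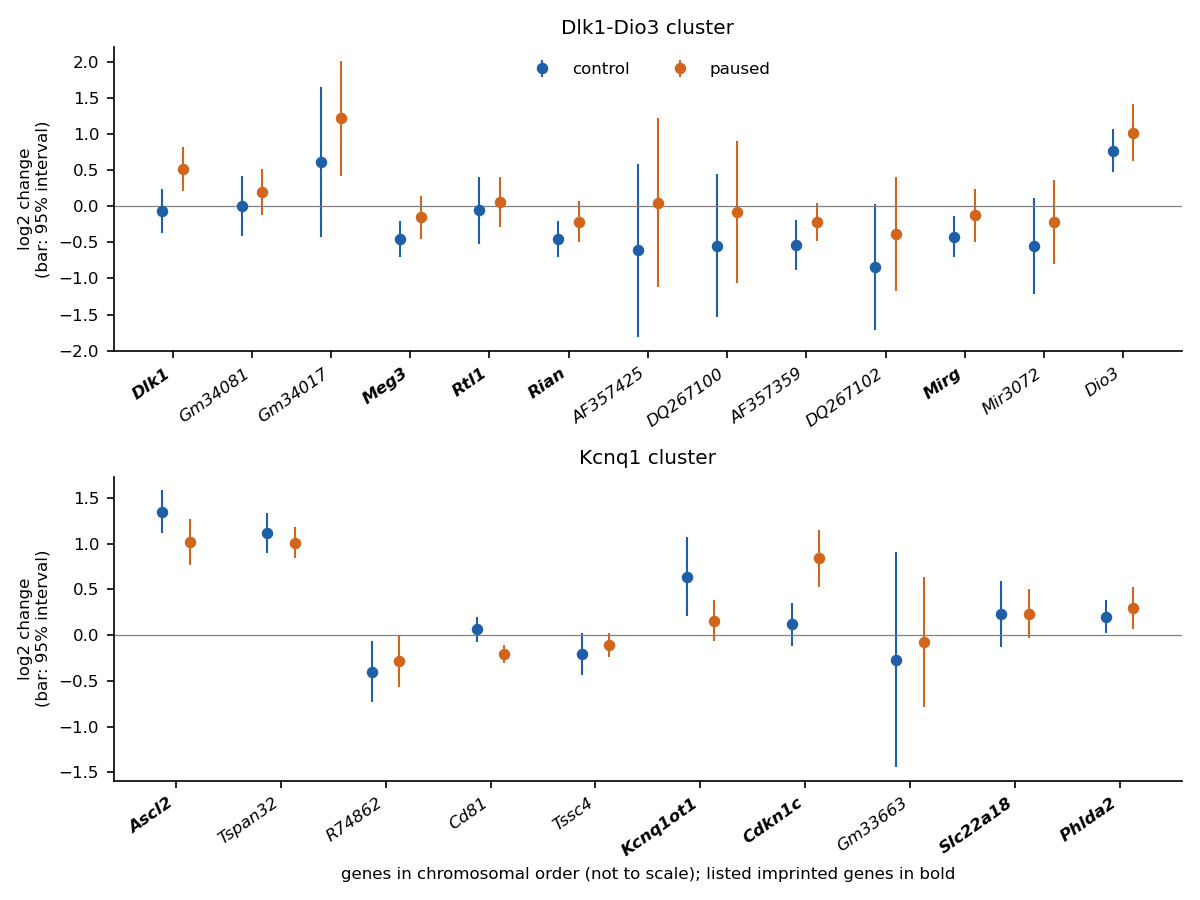
Log2 change in knockout over wild type (vertical axis, bars are 95% intervals) of genes with values in both conditions in the Dlk1-Dio3 cluster (top, with Dio3 at its end) and the Kcnq1 cluster (bottom), in chromosomal order. Meg3, Rian and Mirg lie below 0 in control cells (blue), and Cdkn1c stands out in paused cells (orange) at 0.84.

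The Kcnq1 cluster on chromosome 7 holds maternally expressed genes that the paternal noncoding RNA Kcnq1ot1 silences in cis. Ascl2 (chr7:142966822-142969264 in GRCm38.p6), which codes for a transcription factor of trophoblast and intestinal stem cells, had the largest change of the imprinted genes listed in control cells and, after Grb10, the next largest in paused cells. It rose by 1.35 in control (mean 688 normalized counts, SE 0.12, adjusted p 1.17e-27) and by 1.01 in paused cells (mean 510, SE 0.13, adjusted p 6.72e-14) per the authors' deposited tables, 2.55-fold and 2.02-fold. Tspan32 next to it, a tetraspanin gene, rose by 1.12 (SE 0.11) and 1.01 (SE 0.08) per the authors' deposited tables. Of 7 trophoblast markers looked up, 3 were higher (Gata3, Krt7 and Hand1) and 2 lower (Cdx2 and Eomes) per the authors' deposited table of control cells. In paused cells 3 were higher and 1 lower per the authors' deposited table. Summed over the list the mean was 2134 normalized counts for control and 2226 for paused cells per the authors' deposited tables, with Elf5 at 15.0 and 7.32 and Tpbpa matched to no row. All 7 primitive endoderm markers looked up, such as Gata6 and Sox17, were called higher by both of the authors' deposited tables. Their summed mean was 5141 normalized counts for control and 5830 for paused cells per the authors' deposited tables. Markers of other cell types also moved. Of 4 mesoderm markers with a row, 2 were lower in control cells and 3 in paused cells, none higher, among them T by -4.66 (SE 0.48) and -3.86 (SE 0.43), with summed means of 574 and 567 normalized counts per the authors' deposited tables. Of 7 fibroblast markers 4 were lower in each condition and none higher, Col1a1 by -2.79 (SE 0.40) and -3.53 (SE 0.47), with summed means of 1020 and 1023 normalized counts per the authors' deposited tables. Of 6 neural markers 3 were lower in each condition, Map2, Pax6 and Neurod1, while control cells had 2 higher and paused cells had 1, with summed means of 7336 and 2891 normalized counts per the authors' deposited tables. The part of any of these cells in the changes of Ascl2, Ndn, Nnat and other imprinted genes was not tested.

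Cdkn1c (chr7:143458339-143461059 in GRCm38.p6), which codes for the cell cycle inhibitor p57, was the one listed gene whose change differed between the conditions. It was at 0.12 in control cells (mean 2624 normalized counts, SE 0.12, adjusted p 0.453) and rose by 0.84 in paused cells (mean 1802, SE 0.16, adjusted p 9.4e-07) per the authors' deposited tables, 1.79-fold. The difference was 0.72 (SE 0.20, adjusted p 0.0282), with a 95% interval from 0.33 to 1.11. Across all genes 1.44% had such a difference, and among the imprinted genes 1 of 38 did (2.63%). The call did not hold at an adjusted p of 0.01 (0.533% of all genes), for a difference of at least 2-fold (0.146%), against one of at most 1.2-fold (0.0105%), or after dividing the statistic by the spread of its central values (0.183%). In the annotation an antisense gene, Gm44732, lies over 30.7% of the exon bases of Cdkn1c, and whether reads were counted by strand is not given in the sources used here.

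In the rest of the cluster Phlda2 was called in paused cells and Kcnq1ot1 in control cells. Phlda2, a maternally expressed gene that restrains placental growth, was at 0.20 in control cells (adjusted p 0.067) and rose by 0.30 in paused cells (SE 0.12, adjusted p 0.028) per the authors' deposited tables. Slc22a18, a transporter gene, was not called, at 0.23 and 0.24 per the authors' deposited tables. Kcnq1ot1 rose by 0.64 in control cells (mean 654 normalized counts, SE 0.22, adjusted p 0.0106) and was at 0.16 in paused cells (mean 832, SE 0.12, adjusted p 0.275) per the authors' deposited tables. None of the listed maternal genes of the cluster was called lower in control cells. The Kcnq1ot1 call there was lost at an adjusted p of 0.01 and when the null was any change up to 1.2-fold. It was also lost after dividing the statistic by the spread of its central values, and it held with equal summed counts. The SE of Kcnq1ot1 in control cells was 2.74 times the median SE of genes nearest in mean count. Silencing by Kcnq1ot1 was not tested, as total RNA does not separate the parental copies. The 20 nearest tested genes outside the stretch from Ascl2 to Phlda2, H19 among them, had medians of 0.29 and 0.34 per the authors' deposited tables. Imprinted genes outside the list were not left out of these 20. Of the 20, 9 and 10 were called higher and 2 and 3 lower. Over all genes 19.5% and 20.5% were higher and 21.9% and 22% lower. Chromosome 7 as a whole had medians of 0.01 and 0.00344 per the authors' deposited tables.

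**Figure D4:**
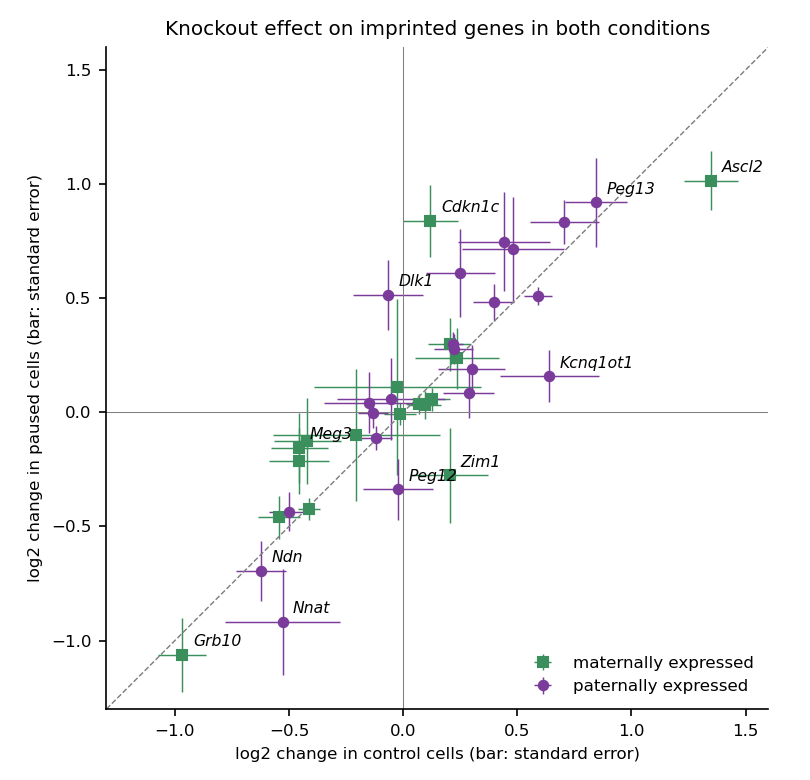
Log2 change in paused cells (vertical axis) against that in control cells (horizontal axis) for the 38 imprinted genes with values in both, maternally expressed as green squares and paternally expressed as purple circles, bars being standard errors. Cdkn1c and Dlk1 lie above the dashed line of equal change, Kcnq1ot1 and Zim1 below it.

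In the Snrpn cluster on chromosome 7, which in humans is the Prader-Willi and Angelman region, paternally expressed genes did not move as a block. Ndn, which codes for necdin, fell by 0.62 in control (mean 436 normalized counts, SE 0.11, adjusted p 1.71e-07) and by 0.69 in paused cells (mean 275, SE 0.13, adjusted p 1.1e-06) per the authors' deposited tables. Magel2 next to it, which codes for an activator of ubiquitin ligases, was not called, at -0.15 and 0.04 per the authors' deposited tables. Peg12, a relative of the Wnt regulator gene Frat1, was at -0.02 in control cells and fell by 0.34 in paused cells (SE 0.13, adjusted p 0.0296) per the authors' deposited tables. The Peg12 call was lost at an adjusted p of 0.01. It was also lost with equal summed counts, which shifted changes by 0.04 in paused cells. The maternally expressed ubiquitin ligase gene Ube3a, imprinted in neurons, had values of -0.01 (SE 0.07) and -0.01 (SE 0.05) per the authors' deposited tables, with 95% intervals within 0.15 of 0. Antisense genes such as Snhg14 lie over 27.3% of its exon bases. Atp10a, a phospholipid transporter gene reported as maternally expressed and outside the list, fell by 1.47 (SE 0.10) and 1.67 (SE 0.15) per the authors' deposited tables.

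Among the 17 listed maternally expressed genes, Grb10 and Gnas had the steepest falls in both conditions. Grb10 (chr11:11930499-12037428 in GRCm38.p6), which codes for an adaptor that dampens insulin and growth factor receptors, fell by 0.97 in control (mean 2716 normalized counts, SE 0.11, adjusted p 2.69e-18) and by 1.06 in paused cells (mean 1758, SE 0.16, adjusted p 7.42e-10) per the authors' deposited tables, 1.95-fold and 2.09-fold. Ddc beside it, the decarboxylase of dopamine and serotonin synthesis, rose by 0.36 (SE 0.11) and 0.81 (SE 0.12) per the authors' deposited tables. Gnas, the gene of the stimulatory G protein alpha subunit, fell by 0.54 in control (mean 6585, SE 0.09, adjusted p 2.38e-08) and by 0.46 in paused cells (mean 7009, SE 0.09, adjusted p 5.78e-06) per the authors' deposited tables. Its paternally expressed antisense RNA Nespas rose by 0.29 in control cells (SE 0.11, adjusted p 0.0273) and was at 0.09 in paused cells per the authors' deposited tables. The Gnas locus makes several transcripts of opposite imprint that 1 row cannot separate, and 38.5% of the exon bases of Nespas lie over those of other genes.

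Of the paternally expressed genes that stand alone, 2 rose and 1 fell in both conditions. Plagl1, a zinc finger gene that regulates other imprinted genes, rose by 0.71 in control (mean 914 normalized counts, SE 0.15, adjusted p 2.47e-05) and by 0.83 in paused cells (mean 902, SE 0.10, adjusted p 2.37e-16) per the authors' deposited tables. Slc38a4, an amino acid transporter gene, rose by 0.22 (SE 0.04, adjusted p 5.3e-06) and 0.30 (SE 0.05, adjusted p 1.29e-07) per the authors' deposited tables, and had the second highest mean per kilobase of exon. Zdbf2, a gene of postnatal growth and feeding, fell by 0.50 (SE 0.09, adjusted p 2.43e-07) and 0.44 (SE 0.09, adjusted p 2.61e-06) per the authors' deposited tables. Impact, which codes for an inhibitor of the amino acid sensor GCN2, was not called, at -0.12 (SE 0.07) and -0.11 (SE 0.05) per the authors' deposited tables. Airn, the paternal antisense RNA that silences Igf2r, was near the lowest counts in paused cells (mean 5.39 normalized counts), and its value of 0.59 had an SE of 0.65 per the authors' deposited table.

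The Mest cluster on chromosome 6 had no called gene among those listed. Mest, which codes for a hydrolase-like protein of growth, was at -0.13 (SE 0.06, adjusted p 0.0837) in control and -0.0046 (SE 0.06) in paused cells per the authors' deposited tables. Copg2, a coatomer gene that lies antisense over 23.1% of the exon bases of Mest, was at 0.07 (SE 0.06) and 0.04 (SE 0.05) per the authors' deposited tables. Klf14, a transcription factor gene, was at a mean of 13.6 and 18.4 normalized counts with values of -0.21 (SE 0.37) and -0.10 (SE 0.29) per the authors' deposited tables, an error too wide to show a change of this size.

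The change from wild type to knockout was then compared between the conditions over all listed genes. Of the 38 genes in both tables, 12 were called in both, 7 higher and 5 lower, and all 12 in the same direction, as were 5792 of the 5823 genes called in both over all genes. Over all genes 30.4% were called in both, against 31.6% here. The genes higher in both were Ascl2, Peg3, Zrsr1, Mcts2, Peg13, Slc38a4 and Plagl1, of which 6 are paternally expressed. Those lower in both were Grb10, Gnas, H13, Ndn and Zdbf2. Calls were made in control cells alone for 5 genes (13.2%, against 11.9% of all genes) and in paused cells alone for 8 (21.1%, against 13.4%). Of these 13 only Cdkn1c passed the test of the difference itself.

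The SE of several imprinted genes was large for their level. Set against the median SE of the 200 genes nearest in mean count, the ratio had a median of 1.26 in control and 1.29 in paused cells. It was over 1 for 27 of 38 and 31 of 39 genes. The ratio was computed for the imprinted genes alone, so no share over all genes can be set beside these counts. Peg10 had the highest ratio, 4.14 and 5.5. Meg3 (2.36 and 3.52) and Rian (2.54 and 3.52) were also over 2 in both conditions. So were Cdkn1c (2.17 and 3.06) and Nnat (2.96 and 2.6). Low ratios were those of H13 (0.746 and 0.888) and Zrsr1 (0.907 and 0.691). The SE covers the spread between libraries, the knockout lines included if both entered, and its source was not tested.

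**Figure D5:**
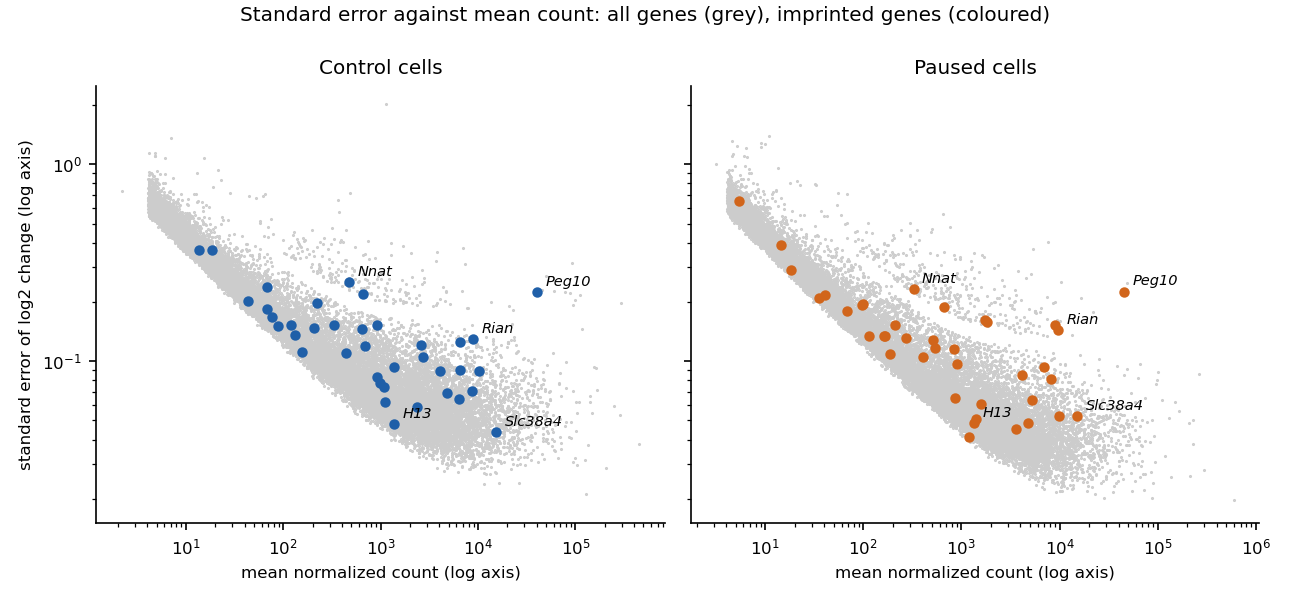
Standard error of the log2 change (vertical log axis) against mean normalized count (horizontal log axis) for all genes (grey) and imprinted genes (coloured), control cells left and paused cells right. Peg10 lies far above genes of like count in both panels, while H13 lies among the low ones.

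Levels were compared between genes as mean normalized counts per kilobase of exon in the GENCODE M21 annotation, over all libraries of a table. In control cells the order was Peg10 (6044), Slc38a4 (3616), Impact (1701), Mest (1615), Cdkn1c (1287), Phlda2 (1236) and Mcts2 (1006) from the authors' deposited table. Meg3 and Rian stood at 360 and 486, and the lowest were Usp29 (4.94), Asb4 (4.75) and Klf14 (4.44) in that table. The spread between libraries of a level is unknown, so neighbours in this order are not shown to differ. The tables were normalized separately, so levels are not compared between conditions.

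Other imprinted genes outside the list were looked up as a further 27 genes. Of 21 with a row, 6 were higher and 7 lower per the authors' deposited table of control cells, and 7 of 21 were higher and 7 lower per the authors' deposited table of paused cells. Over all genes 41.4% and 42.6% were called in either direction. Their median change was 0.00534 and -0.0058 per the authors' deposited tables. Igf2r, the receptor that clears the growth factor IGF2, rose by 0.25 in control cells (SE 0.06, adjusted p 8.24e-05) and fell by 0.11 in paused cells (SE 0.04, adjusted p 0.0329) per the authors' deposited tables. That difference of -0.36 (SE 0.07) passed the test (adjusted p 4.63e-04). At an adjusted p of 0.01 the difference of Igf2r held and its fall in paused cells did not. The other rules, equal summed counts included, were run on the listed genes alone, so whether the Igf2r calls hold under them was not tested. Calcr, the calcitonin receptor gene, fell by 1.02 (SE 0.25) and 1.21 (SE 0.26) per the authors' deposited tables. Slc22a3, a transporter gene of the Igf2r cluster, rose by 2.36 (SE 0.64) and 1.86 (SE 0.53), with means over all libraries of 7.41 and 11.1 normalized counts, per the authors' deposited tables, and Dcn had a mean of 4.17 and a fall of 1.57 (SE 0.59) in control cells.

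Factors that keep or erase imprinting marks were listed as a further 15 genes, and 15 had a row. In control cells 4 were higher and 3 lower, and in paused cells 7 were higher and 2 lower per the authors' deposited tables, where 41.4% and 42.6% of all genes were called. Dppa3, which shields maternal methylation in the zygote, fell by 0.50 (SE 0.13, adjusted p 4.9e-04) and 0.62 (SE 0.14, adjusted p 1.05e-04) per the authors' deposited tables. Tet2, an enzyme that oxidises methylated cytosine, rose by 0.59 (SE 0.07, adjusted p 1.24e-14) and 0.28 (SE 0.07, adjusted p 5.25e-04) per the authors' deposited tables. Dnmt3l and Dnmt3a, which set methylation in germ cells, rose in paused cells by 0.39 (SE 0.07) and 0.34 (SE 0.07) per the authors' deposited table and were not called in control cells. Neither passed the test of the difference (adjusted p 0.0712 and 0.0726). Dnmt3b, of the same family, fell by 0.32 in control cells (SE 0.09, adjusted p 0.00204) and was at -0.10 in paused cells (SE 0.07, adjusted p 0.245) per the authors' deposited tables. Zfp57 rose by 0.24 (SE 0.08, adjusted p 0.0121) and 0.30 (SE 0.06, adjusted p 1.19e-06) per the authors' deposited tables. No DNA methylation was measured in these libraries.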

How the data were processed

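Per the labels, poly(A) RNA of 50000 live cells per sample was made into directional libraries. Per the submitters' processing notes FastQC, Trim Galore, HISAT2, featureCounts and DESeq2 were used with build mm10, with no versions, and per the file headers each table holds the columns of a DESeq2 result. The mean of normalized counts is a signal value the authors averaged over libraries, the log2 change and its SE are log2 values the authors deposited, the statistic is a score per the file headers, and the authors also deposited a raw and an adjusted p-value. Adjusted values recomputed by the Benjamini-Hochberg method differed by over 1% for 0 genes. Strand use, the libraries entered and the numerator are not given in the sources used here.

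The difference between conditions was the paused minus the control change over the root of the summed squared SEs, tested two-sided on the normal distribution and adjusted by the same method over 19134 genes. The calculation was checked on simulated data with normal noise of the size of the deposited SEs. That check cannot show whether those SEs are right for the real libraries. The count tests foreseen for single libraries do not apply to results tables. Members and lists were chosen with earlier results of these data known. All 41 listed genes are named. Full statistics go to those called with at least 1.5-fold in either condition or that differ between conditions, and to others where a pair or cluster turns on them. Further imprinted genes are the 6 with the largest called change, with Igf2r, Dio3, Ddc, Commd1, Herc3 and Blcap added as neighbours after their values were seen, and maintenance factors are the 4 with the largest, with Dnmt3b and Zfp57 added likewise. RefSeq GRCm38.p6 placed 95.6% of 20625 symbols. Exons came from GENCODE M21. Python 3.11.15, numpy 2.4.6, scipy 1.17.1 and pandas 2.3.3 were used.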

Additional observations from a re-analysis of the deposited data

Results flagged for a closer look

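Cdkn1c and Igf2r were singled out because their change in the knockout differed between control and paused cells by the test of the difference itself. For Cdkn1c the paused change exceeded the control change by 0.72 (SE 0.20, adjusted p 0.0282). For Igf2r, which lies outside the 41 listed genes, the paused minus the control change was -0.36 (SE 0.07, adjusted p 4.63e-04). Both were compared between sets of libraries that share no sample. The settings below were run on the listed genes alone, so how the Igf2r difference depends on them was not tested.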

How the results depend on the processing

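No paired analysis was possible because the tables give no value per library, and for the same reason leaving out a replicate and another count normalization were not run. The 17 calls among imprinted genes in control cells became 1 with a change of at least 2-fold, 8 against a change of at most 1.2-fold and 2 after dividing the statistic by the spread of its central values. The 20 in paused cells became 2, 9 and 1 under the same settings. Of all genes 6.98%, 10.6% and 1.48% were called by these rules in the former, and 7.1%, 10.6% and 2.25% in the latter condition. The single difference between conditions, that of Cdkn1c, went to 0 under each of these 3 settings and at an adjusted p of 0.01. Leaving out the 7 listed genes whose exons overlap another gene by over 20%, of which 5 were tested, also gave 0. This setting was chosen after seeing the data, and it removes Cdkn1c itself and so tests nothing about it. Its p is a normal p of the deposited DESeq2 values, and 2 of 38 genes had an unadjusted p under 0.05, against 12.9% of all genes. For these losses the cause was not tested beyond what each setting asks for. No called change turned around in sign under any setting run. Equal summed counts shifted every change by 0.06 at most, which added Trappc9, Sgce, Peg10, Nap1l5 and Phlda2 to the control calls and removed Peg12 from the paused calls, and 60.5% of all control calls were then higher, against 47.1% as deposited. The median change of the paternally expressed genes ranged from 0.22 to 0.28 in control and 0.19 to 0.29 in paused cells over the settings run. That of the maternally expressed genes changed sign with the setting, from -0.12 without the genes imprinted in some tissues to 0.04 with equal summed counts in control cells, and from -0.11 to 0.03 under the same settings in paused cells. Depth per library is unknown, and genes with means under about 20 normalized counts, such as Klf14, Asb4 and Airn, had an SE of 0.29 or more.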
